A study of Mus musculus with 4 samples.

Results

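The genes described here are the subunits of the hypoxia-inducible factors (HIF), *HIF-1α*, *HIF-1β*, *HIF-2α* and *HIF-3α*, together with *VEGFα*, a target gene of these factors. They are 5 of the 98 genes of an RT-qPCR panel that also held 2 housekeeping assays, and they were chosen by name. Whole lungs of female C57BL/6J mice, aged 6 to 8 weeks, were compared in 4 groups. All mice had an injection of Matrigel into the lung, either with saline (vehicle) or with Lewis lung carcinoma (LLC) cells, which are a single mouse lung cancer cell line of the same strain background. All mice were then dosed intranasally on Days 3, 6 and 9, either with 10 µg of the recombinant mouse protein S100A8 or with HBSS, the salt solution used as its control, and lungs were taken on Day 10. Without cancers, the groups are HBSS + vehicle and S100A8 + vehicle. With cancers, they are HBSS + LLC and S100A8 + LLC.

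A HIF is a transcription factor made of 1 α subunit and the shared partner HIF-1β, also called ARNT. With enough oxygen the α proteins are hydroxylated and degraded, and in hypoxia they persist, pair with HIF-1β and bind short DNA elements near genes for glycolysis, vessel growth and iron handling. HIF-1α is broadly expressed, HIF-2α (EPAS1) is abundant in endothelial and alveolar cells of the lung, and HIF-3α has splice forms that can restrain the other factors. The oxygen control acts on protein, so that mRNA values do not measure HIF activity. VEGFα is the main growth factor for blood vessels and is made in large amounts by the alveolar epithelium.

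The threshold cycle (Ct) is the PCR cycle at which a transcript is detected, and each cycle earlier corresponds to roughly 2 times more template. The deposited value of each assay is 1 mean Ct per group, which the authors took over 4 to 5 mice. No spread between mice, SD or test can be had from such values, and a difference below is the size of a difference between averages. Reactions were stopped at 38 cycles, so that a Ct of 38 is a limit of detection. Fold changes were computed after subtracting the mean Ct of the 2 housekeeping assays, and a gene was counted as higher or lower when it differed more than 2-fold. The first housekeeping assay was at 14.1, 16.2, 15.3 and 15.8 cycles in the order of the groups given above, and the second at 22.5, 23.3, 20.6 and 22.8 cycles. They moved in opposite directions between HBSS + vehicle and HBSS + LLC, and the fold changes of the 5 genes are therefore given with their range when the reference was only 1 of these assays or the panel's median Ct.

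HIF dimers bind the core letters ACGTG or GCGTG, and the promoter windows of the 5 genes that RefSeq gives for the mouse build GRCm38.p6 (250 bases before to 50 bases after the start of transcription) were searched for both motifs on both strands. Of 32851 such windows of 300 bases, 19.6% held ACGTG, 32.4% held GCGTG and 43.8% held at least 1 of them. The windows of *Hif1a*, *Arnt* and *Hif3a* held a match, while the *Vegfa* window at chr17:46032328-46032627 held neither. Sequence outside the windows was not searched, so that matches further from a start would be missed. A second *Vegfa* window, at chr17:46025114-46025413, belongs to an annotated start inside the gene, so that it lies downstream of the first start. It held 1 match of each motif, which are not shown. *Epas1*, which encodes HIF-2α, was not among the windows used. The matches are shown because they are the letters that the proteins of this group read, and a match describes the sequence and is not evidence of binding. Each sequence is on the strand of the gene, with the match in capitals, and CACGC is GCGTG read on the opposite strand.
*Hif1a*, chr12:73907713-73907757, plus strand: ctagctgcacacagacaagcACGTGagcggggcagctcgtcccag
*Hif1a*, chr12:73907777-73907821, plus strand: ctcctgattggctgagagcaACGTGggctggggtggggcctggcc
*Arnt*, chr3:95434341-95434385, plus strand: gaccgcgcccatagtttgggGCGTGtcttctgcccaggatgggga
*Hif3a*, chr7:17062589-17062633, minus strand: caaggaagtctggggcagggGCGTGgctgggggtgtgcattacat
*Hif3a*, chr7:17062633-17062677, minus strand: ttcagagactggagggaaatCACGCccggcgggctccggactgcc
The first *Hif1a* match lies 134 bases before the start site and is read as ACGTG on both strands, because the base before it completes the palindrome CACGTG and the 2 matches overlap. The second *Hif1a* match lies 70 bases before the start. The *Arnt* match lies 29 bases before the start, and those of *Hif3a* 186 and 230 bases before.

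*HIF-1α*, the oxygen-regulated subunit of the classical HIF-1 dimer, had a mean Ct of 35.03 with HBSS and 36.35 with S100A8 in lungs without cancers, and of 31.15 with HBSS and 34.75 with S100A8 in lungs with LLC cancers. HBSS + LLC stood apart from the other groups, which lay within 1.60 cycles of each other. Its mRNA was thus detected earliest in lungs that bore LLC cancers and had not received S100A8, before and after normalization and under each reference.

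*HIF-2α*, the α subunit known for its role in lung endothelium, was at 28.64 cycles in HBSS + vehicle and 30.59 in HBSS + LLC, and at 34.23 in S100A8 + vehicle and 33.39 in S100A8 + LLC. The order differed from that of *HIF-1α*. *HIF-2α* was highest in HBSS + vehicle, followed by HBSS + LLC and S100A8 + LLC, and lowest in S100A8 + vehicle, and this order was the same under every reference and in the raw Ct values. Both groups that received S100A8 lay below both groups that received HBSS.

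*HIF-3α* was at the limit of 38 cycles in both groups without cancers. It was detected in the groups with LLC cancers, at 35.27 with HBSS and 36.41 with S100A8, late cycles at which few template molecules are counted.

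*HIF-1β*, the constitutive partner of all 3 α subunits, was at 31.48 cycles with HBSS and 37.41 with S100A8 in the absence of cancers, and at 33.41 with HBSS and 33.15 with S100A8 in their presence. S100A8 + vehicle was the lowest group by a wide margin, 0.59 cycles short of the limit. An average this close to 38 does not say how many of the mice were themselves at the limit.

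*VEGFα* amplified early in every group, at 17.33 cycles in HBSS + LLC, 19.99 in HBSS + vehicle, 20.29 in S100A8 + vehicle and 20.50 in S100A8 + LLC. HBSS + LLC was again the highest group, and the other 3 lay within 0.51 cycles of each other before normalization. In S100A8 + vehicle 3 of the 5 genes were above 35 cycles, against 2 in HBSS + vehicle and 1 in each group with LLC cancers.

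**Figure D1:**
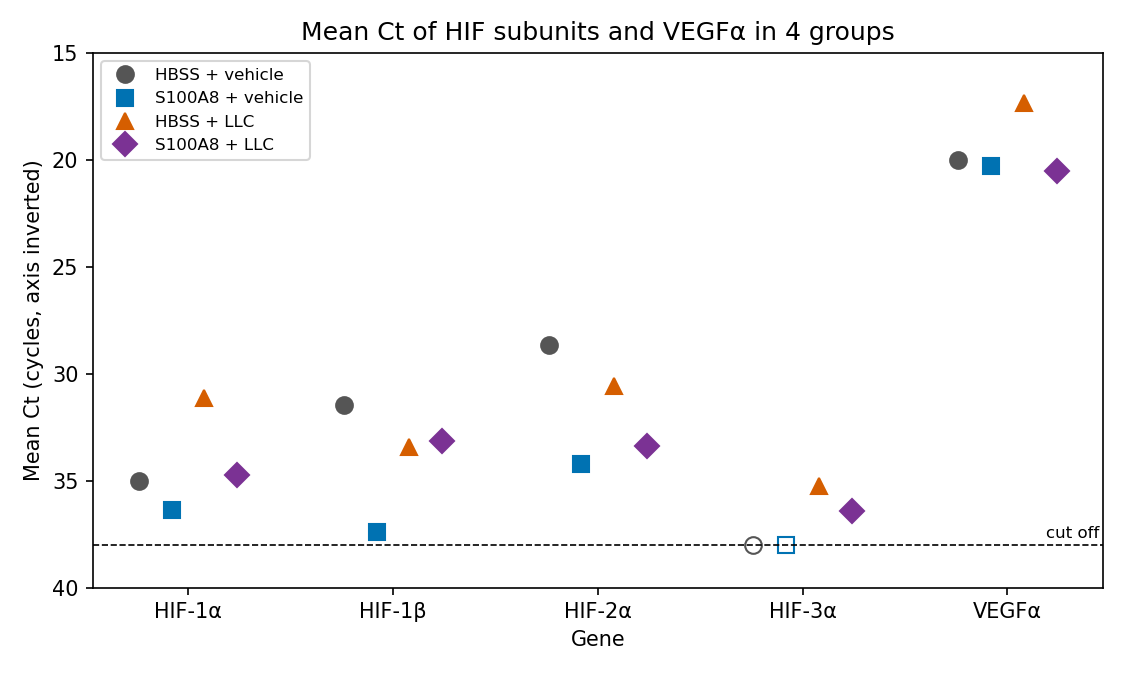
Mean Ct in cycles (vertical axis, inverted so that more template is higher) of each gene (horizontal axis) in the 4 groups, with 1 authors' mean per point and open symbols at the cut off of 38 cycles (dashed line). *HIF-1α* and *VEGFα* were highest in HBSS + LLC, *HIF-1β* and *HIF-2α* in HBSS + vehicle, and *HIF-3α* was above the limit of detection only in the groups with LLC cancers.

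After normalization, the width of each profile over the 4 groups was 3.54 on the log2 scale for *HIF-1α*, 4.49 for *HIF-1β*, 4.15 for *HIF-2α*, at least 2.58 for *HIF-3α* and 2.32 for *VEGFα*. The median width of the 98 panel genes was 1.75, and the 5 genes held places 18, 14, 16, 27 and 33 from the widest, with limits read as values. All of them varied more between groups than the middle gene of the panel. The HIF subunits amplified at 28.64 cycles or later in every group, where the panel's median Ct lay between 23.35 and 24.815. Widths were not compared among genes of similar Ct.

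S100A8 alone was compared with HBSS in lungs without cancers. In S100A8 + vehicle, *HIF-1β* was 22.5-fold lower than in HBSS + vehicle (range over references 14.4 to 35.02) and *HIF-2α* was 17.8-fold lower (11.4 to 27.7). They were listed as the lowest and second lowest of 97 panel genes with a fold change, in which *MMP-10* and *IL-2*, at 38 cycles in S100A8 + vehicle, have only upper bounds and could lie lower than their listed places. *HIF-1α* differed by 1.09-fold only, and its direction turned with the reference, from a log2 fold change of -0.52 to 0.76. *VEGFα* was 2.20-fold higher (1.41 to 3.43), at place 26 from the highest. No fold change was computed for *HIF-3α*, which was at the limit in both groups.

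Of the 4 genes with a value, 1 was higher and 2 were lower in S100A8 + vehicle, where 27.8% of the panel was higher and 17.5% lower. The median of the 4 log2 fold changes was -2.02, against 0.34 over the panel. The late Ct of *HIF-1β* carries weight here. With Ct values above 35 set to 35, the decrease of *HIF-1β* was 4.23-fold and its place was 6 from the lowest of 93 genes, whereas *HIF-2α* kept its value and became the lowest. The reference does not touch these places, since it shifts all genes alike.

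Markers of the cells that a whole lung holds were read beside these values. In whole tissue, fewer cells of a type and less RNA per cell cannot be told apart. None of the 4 markers of endothelium and vessels (*CAV1*, *VCAM-1*, *ICAM-1* and *CDH13*) was lower in S100A8 + vehicle, 1 was higher, and their log2 fold changes ran from -0.58 to 12.88. With the second housekeeping assay or the panel median 1 was lower, beside 30 and 25 of 97 panel genes. The highest was *ICAM-1*, an adhesion molecule of endothelium, at 32.47 cycles in HBSS + vehicle and 21.03 in S100A8 + vehicle. It was at 19.23 in HBSS + LLC and 21.39 in S100A8 + LLC. Its high values against HBSS + vehicle in all 3 comparisons therefore rest on 1 late control average. Among the 6 assays for markers of lung epithelium (*RAGE*, *AGER*, *CDH1*, *MUC1*, *KRT5* and *KRT14*, the first 2 being commonly used names of the same gene) 1 was lower, the basal cell keratin *KRT5* at -3.10, and 1 was higher. Of the 3 myeloid markers 2 were higher and none was lower, with log2 fold changes from 0.67 to 1.20. With the first housekeeping assay 3 myeloid and 4 epithelial markers were higher, beside 48 of 97 panel genes. With the second or the panel median no myeloid marker was higher, beside 16 and 19 panel genes. The T cell marker *LCK* was at -1.63 and the proliferation marker *MKI67* at -0.39. None of the 15 marker assays was at 38 cycles in any group, and their part in the values of the HIF subunits was not tested.

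LLC cancers without S100A8 were compared with lungs without cancers. In HBSS + LLC, *HIF-1α* was 11.6-fold higher than in HBSS + vehicle (3.84 to 35.3) and *VEGFα* was 4.99-fold higher (1.65 to 15.1). *HIF-3α* was at least 5.24-fold higher (1.73 to 15.9, each a lower bound because the control was at the limit). *HIF-1β* was 4.82-fold lower (1.59 to 14.6) and *HIF-2α* was 4.89-fold lower (1.61 to 14.8). Each of the 5 genes kept its direction under each reference. Only *HIF-1α* was past 2-fold with all of them.

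All 5 genes were past 2-fold in HBSS + LLC, 3 higher and 2 lower, where 26.5% of the panel was higher and 21.4% lower. By place among the 98 genes, *HIF-1α* was 11th from the highest, *HIF-3α* 16th or higher, its value being a lower bound, and *VEGFα* 17th, and *HIF-2α* was 8th and *HIF-1β* 9th from the lowest. The median over the 5 genes was 2.32 on the log2 scale and that of the panel -0.19. Of the endothelial markers 2 were higher and none lower, at log2 fold changes from -0.69 to 12.90, and with the second housekeeping assay 1 was higher and 2 were lower. The epithelial markers had 1 higher and 2 lower (-3.11 to 4.07), the myeloid markers lay between -0.38 and 0.70, *LCK* was at -2.37 and *MKI67* at -0.46. Their part in these values was not tested. Over the 98 genes, 61 were higher and 4 lower with the first housekeeping assay as reference, and 14 higher and 62 lower with the second, so that marker and list counts in this comparison follow the reference. LLC cells are mouse cells and carry the same genes, so that transcripts of cancer and host cannot be told apart.

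**Figure D2:**
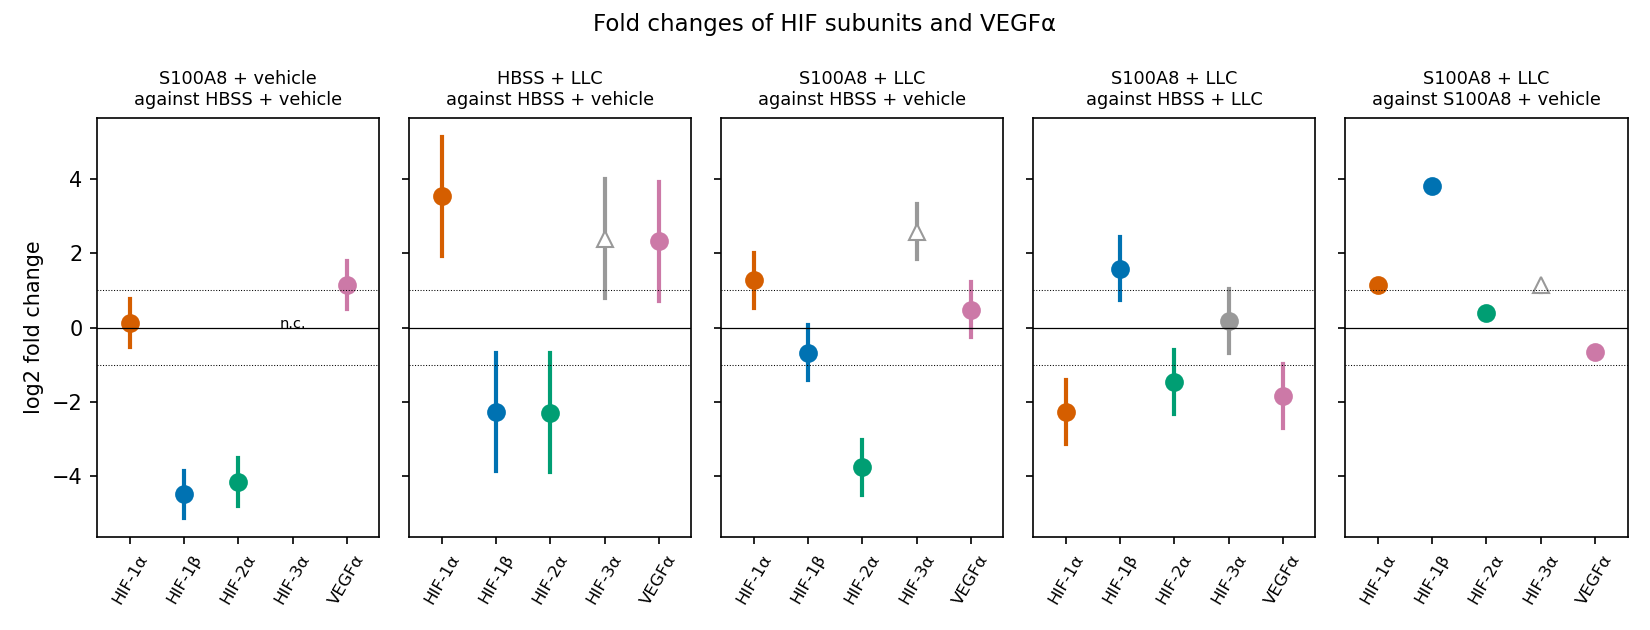
Log2 fold change (vertical axis) of each gene (horizontal axis) in 5 comparisons of groups, with points for the mean of both housekeeping assays as reference, lines for the range over the other references, open triangles for lower bounds, dotted lines at 2-fold and n.c. where both groups were at 38 cycles. *HIF-1β* and *HIF-2α* lay below 0 under every reference in the first 2 comparisons, and *HIF-1α*, *HIF-2α* and *VEGFα* lay below 0 under every reference in S100A8 + LLC against HBSS + LLC.

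Mice with both LLC cancers and S100A8 were also set against HBSS + vehicle. *HIF-2α* was 13.5-fold lower in S100A8 + LLC (8.11 to 22.6), the second lowest of 98 genes. *HIF-1α* was 2.41-fold higher (1.44 to 4.03) and *HIF-3α* at least 5.98-fold higher (3.58 to 9.99). *HIF-1β* was 1.60-fold lower and *VEGFα* 1.39-fold higher, and both changed direction with the reference, over log2 fold changes of -1.42 to 0.06 and -0.26 to 1.22. Among the 5 genes 2 were higher and 1 was lower, where 22.4% of the panel was higher and 18.4% lower. Their median was 0.48, and that of the panel -0.22. *HIF-2α* was thus lower by more than 2-fold in all 3 groups compared with HBSS + vehicle, except that in HBSS + LLC it was within 2-fold when the first housekeeping assay was the reference. *HIF-1β* was lower by more than 2-fold in all 3 groups when the second housekeeping assay or the panel median was the reference, at -1.42 and -1.285 in S100A8 + LLC. The endothelial markers had 1 higher and 1 lower in S100A8 + LLC (-1.20 to 12.07 on the log2 scale), the epithelial markers 2 higher and 1 lower (-2.22 to 3.62), the myeloid markers lay between -0.93 and 0.81, *LCK* was at -1.86 and *MKI67* at -0.21. Their part in these values was not tested. Over the 98 genes, 37 were higher and 8 lower with the first housekeeping assay, and 16 higher and 47 lower with the second. Marker and list counts in this comparison therefore also follow the reference.

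The effect of S100A8 in lungs with LLC cancers was read from S100A8 + LLC against HBSS + LLC. *HIF-1α* was 4.82-fold lower with S100A8 (2.66 to 8.75), *VEGFα* was 3.58-fold lower (1.97 to 6.498) and *HIF-2α* was 2.77-fold lower (1.53 to 5.03). *HIF-1β* was 3.01-fold higher (1.66 to 5.46). *HIF-3α* had a 1.14-fold difference whose direction depended on the reference (log2 fold change -0.67 to 1.05). Both oxygen-regulated subunits that pair with HIF-1β in activating dimers were therefore lower, together with the target gene *VEGFα*, and the partner itself was higher.

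In this comparison 1 of the 5 genes was higher and 3 were lower, where 11.2% of the panel was higher and 15.3% lower. *HIF-1α* was the third lowest of 98 genes, *VEGFα* the 7th lowest and *HIF-2α* the 10th lowest, and *HIF-1β* was the 6th highest. The median of the 5 was -1.47 and that of the panel -0.06. None of the 4 endothelial markers was past 2-fold (-0.88 to -0.51 on the log2 scale). With the first housekeeping assay 4 were lower, beside 44 of the 98 panel genes, and with the panel median 3, beside 32. The epithelial markers had 1 higher and none lower (-0.45 to 4.29), the myeloid markers lay between -0.95 and 0.66, *LCK* was at 0.51 and *MKI67* at 0.25. With the first housekeeping assay 2 of the 3 myeloid and 2 epithelial markers were lower, and with the panel median 2 myeloid markers. With the second, 3 epithelial markers and 1 myeloid marker were higher, with *LCK* at 1.37 and *MKI67* at 1.11, beside 39 panel genes. The part of the markers in these values was not tested.

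**Figure D3:**
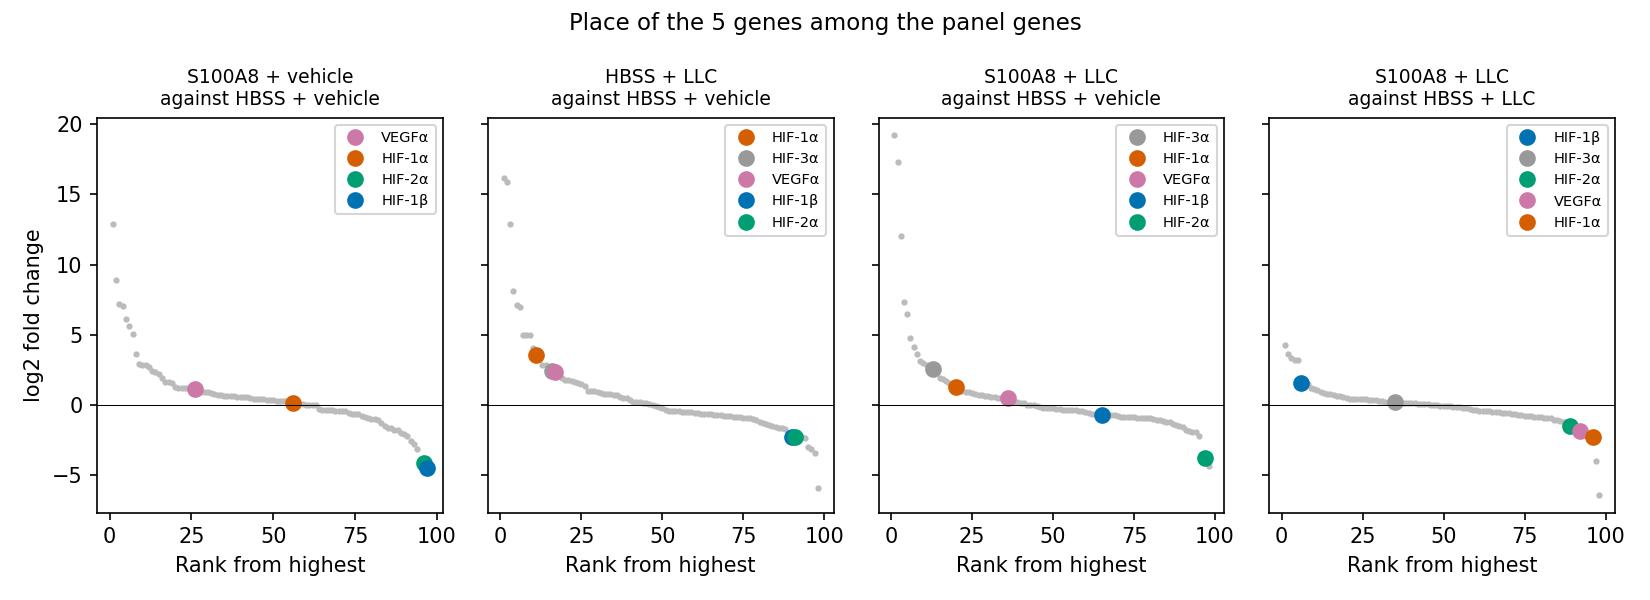
Log2 fold change (vertical axis) of every panel gene against its place from the highest (horizontal axis) in 4 comparisons, with the HIF subunits and *VEGFα* in colour and the other genes as grey points. *HIF-1β* and *HIF-2α* were the 2 lowest points of 97 in S100A8 + vehicle, where genes at 38 cycles are drawn at their bounds, and *HIF-1α* was the third lowest of 98 in S100A8 + LLC against HBSS + LLC.

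LLC cancers in mice that received S100A8 were compared with S100A8 + vehicle. *HIF-1β* was 14.03-fold higher in S100A8 + LLC (12.5 to 15.03), the 4th highest of 98 genes with limits read as values, and 2.64-fold higher with Ct values capped at 35. *HIF-1α* was 2.22-fold higher (1.97 to 2.38), and with the same cap its log2 fold change was -0.20, since its control value lay beyond 35 cycles. *HIF-3α* was at least 2.20-fold higher (1.96 to 2.36). *HIF-2α* was 1.31-fold higher (1.16 to 1.40) and *VEGFα* 1.58-fold lower (1.47 to 1.78). Of the 5 genes 3 were higher and none lower, where 12.2% of the panel was higher and 29.6% lower, and their median was 1.14 against -0.44 for the panel. The housekeeping assays moved little between these groups, and the ranges over references are narrow. Of the endothelial markers 1 was lower (-1.47 to 0.95), of the 6 epithelial assays 1 was higher and 4 were lower, *RAGE* and *AGER* among them (-1.72 to 2.60), and of the myeloid markers 1 was lower (-1.99 to -0.39), with *LCK* at -0.23 and *MKI67* at 0.18. Their part in these values was not tested.

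The effect of S100A8 thus had a different size, and for some genes a different direction, in lungs with and without LLC cancers. The log2 fold change of *HIF-1β* was -4.49 without LLC cancers and 1.59 with them, a difference of 6.08 that was the highest listed among 97 panel genes, although that of *MMP-10*, which was at 38 cycles in S100A8 + vehicle, is a lower bound close below it. *VEGFα* went the other way, from 1.14 to -1.84, a difference of -2.98. For *HIF-2α* the values were -4.15 and -1.47, lower in both settings, with a difference of 2.68. *HIF-1α* went from 0.12 to -2.27, a difference of -2.39. The panel median of this difference was -0.52.

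The difference for *HIF-1β* ran from 4.58 to 7.58 over the references and was 3.67 with Ct values capped at 35. That of *VEGFα* ran from -4.48 to -1.48, that of *HIF-2α* from 1.18 to 4.18 and that of *HIF-1α* from -3.89 to -0.89. Their directions held under each reference. *HIF-1β* and *VEGFα* were 2 of 7 panel genes, among 97 with limits read as values, that were past 2-fold in opposite directions with and without LLC cancers. This did not hold for *VEGFα* with the second housekeeping assay or the panel median, or for *HIF-1β* with the first assay. With 1 average per group these differences were not tested.

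**Figure D4:**
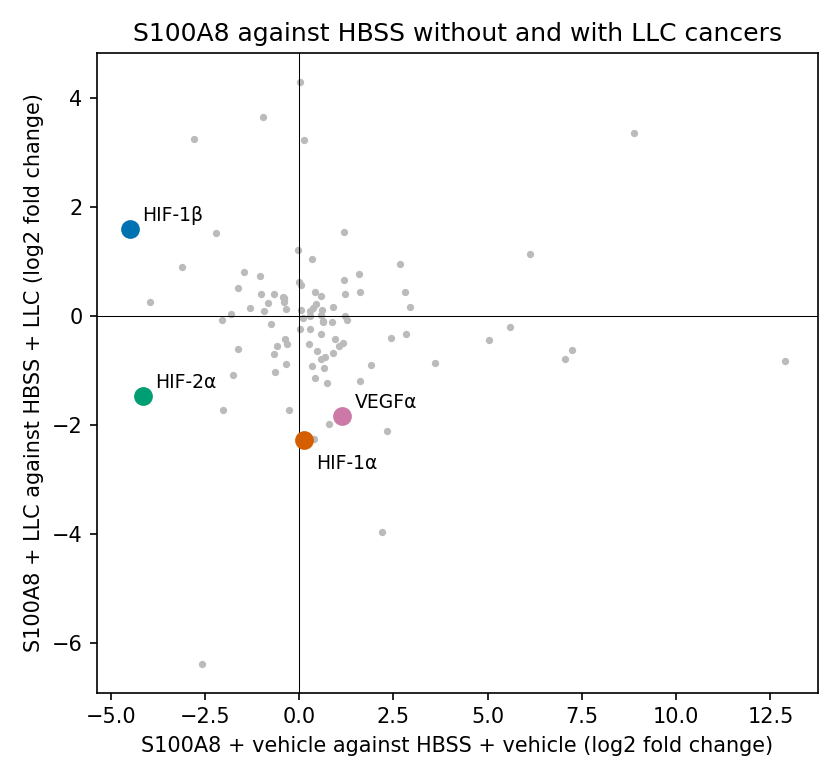
Log2 fold change of S100A8 against HBSS in lungs without LLC cancers (horizontal axis) and with them (vertical axis) for 97 panel genes (grey points), with *HIF-3α* left out because it was at the limit without LLC cancers. *HIF-1β* lies at -4.49 and 1.59, *VEGFα* at 1.14 and -1.84, and *HIF-2α* below 0 on both axes.

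The difference in Ct between 2 assays in the same group does not depend on the housekeeping assays, and how it changes between groups shows whether 2 subunits moved together. Its level is not interpreted, because assays differ in efficiency. The Ct of *HIF-1α* minus that of *HIF-1β* was 3.55 cycles in HBSS + vehicle and -1.06 in S100A8 + vehicle, and in the groups with cancers it was -2.26 with HBSS and 1.60 with S100A8. From HBSS + vehicle to HBSS + LLC, *HIF-1α* was thus shifted 56.1-fold upwards relative to its partner.

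Relative to *HIF-2α*, the difference for *HIF-1α* was 6.39, 2.12, 0.56 and 1.36 cycles in the same order of groups. The balance of the α subunits was shifted towards *HIF-1α* in all 3 groups compared with HBSS + vehicle, by 56.9-fold in HBSS + LLC. With Ct values capped at 35, this shift could not be computed for S100A8 + vehicle. *HIF-1α* lay above 35 cycles in that group and in its control. The Ct of *HIF-1β* minus that of *HIF-2α* was 2.84, 3.18, 2.82 and -0.24. These assays moved in parallel in HBSS + vehicle, S100A8 + vehicle and HBSS + LLC, and parted in S100A8 + LLC, where *HIF-1β* was shifted 8.34-fold upwards relative to *HIF-2α* from HBSS + LLC. With Ct values capped at 35, the shift in S100A8 + vehicle, -0.34 on the log2 scale, became 2.07, so that the parallel in that group rests on a *HIF-1β* value near the limit. The difference between *HIF-1α* and *VEGFα* moved less, over 15.04, 16.06, 13.82 and 14.25 cycles.

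**Figure D5:**
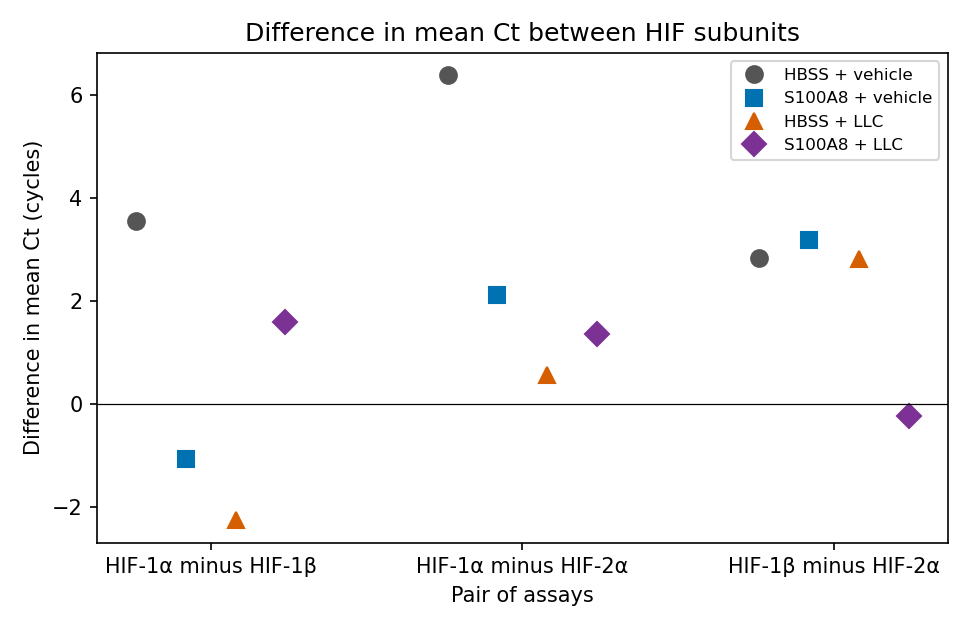
Difference in mean Ct in cycles (vertical axis) between pairs of HIF subunit assays (horizontal axis) in the 4 groups, which does not depend on the reference. The difference between *HIF-1β* and *HIF-2α* lay between 2.82 and 3.18 cycles in 3 groups and was -0.24 in S100A8 + LLC.

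Panel genes with the most similar profile were found by the root mean square (RMS) difference of log2 levels over the 4 groups, after centring each gene. For *HIF-1α* the nearest was *CAT2*, listed in the panel as a transporter, at 0.23, followed by *IDO*, an enzyme of tryptophan breakdown, at 0.67 and *CAV1*, the main protein of caveolae, at 0.77. *VEGFα* was 6th nearest to *HIF-1α*, at 0.85. *VEGFα* itself was nearest to *IDO* at 0.19, to *ALOX12*, a lipoxygenase, at 0.29 and to the vessel growth factor *FGF-2* at 0.44, and *HIF-1α* was 19th.

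*HIF-2α* had no profile as close. Its nearest were *KRT5* at 0.92, the collagen gene *COL10A1* at 1.00 and the cytokine *IL-6* at 1.03, and *HIF-1β* was 16th. *HIF-1β* was nearest to the matrix protease *MMP-10* at 1.02, *KRT5* at 1.09 and *COL11A1* at 1.12. *HIF-3α* was nearest to *IL-2*, *MKP1* and *FGF-2*, at 0.56, 0.63 and 0.67. These distances use limits as values for *HIF-3α* in 2 of the 4 groups, and for *MMP-10* and *IL-2* in S100A8 + vehicle. Likeness over 4 averages is a description, and all assays of a group share the same RNA.

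Other genes of the pathway on the panel were read beside the subunits. A list of 9 assays for genes known as HIF targets comprised *HO-1*, *iNOS*, *CXCR4*, *CXCL-12*, *MIF*, *CAV1*, *ARG1*, *PTGS2* and *COX-2*, of which the last 2 are names of the same gene. Their assays gave different values, at log2 fold changes of -1.75 and -0.28 in S100A8 + vehicle, and *CAV1* is also one of the endothelial markers above. In S100A8 + vehicle 3 were higher and 2 lower than in HBSS + vehicle, where 27.8% of the panel was higher and 17.5% lower. In HBSS + LLC 4 were higher and 2 lower, beside 26.5% and 21.4% of the panel, and in S100A8 + LLC 1 was higher and none lower, beside 22.4% and 18.4%. These counts follow the reference. In S100A8 + LLC, 5 were lower with the second housekeeping assay, beside 47 of 98 panel genes, and 2 with the panel median, beside 41. With the first assay 4 were higher there, beside 37 panel genes, and none was lower. *ARG1*, the arginine-degrading enzyme of alternatively activated macrophages, was the 1 gene higher in all 3 groups, by 48.5-fold, 31.6-fold and 27.3-fold, and past 2-fold under each reference. The medians of the list were 0.37, 0.79 and -0.27, and those of the panel 0.34, -0.19 and -0.22.

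From HBSS + LLC to S100A8 + LLC, the comparison in which *HIF-1α* and *VEGFα* were lower, none of the 9 target assays was higher and 2 were lower, beside 11.2% and 15.3% of the panel. These were *PTGS2* and *COX-2*, at log2 fold changes of -1.08 and -1.73. With the second housekeeping assay 3 of the 9 were higher and none lower, beside 39 and 6 of the 98 panel genes. With the first none was higher and 5 were lower, beside 5 and 44. With the panel median none was higher and 4 were lower, beside 8 and 32. The list had a median of -0.21, against -0.06 over the panel. From S100A8 + vehicle to S100A8 + LLC 1 was higher and 2 were lower, beside 12.2% and 29.6% of the panel, with a median of -0.56 against -0.44.

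Of 6 other genes known to promote vessel growth (*FGF-2*, *HGF*, *ALOX12*, *MMP-2*, *MMP-9* and the chemokine *CCL-11*), 2 were higher and 1 was lower in S100A8 + vehicle, 2 higher and 1 lower in HBSS + LLC, and 1 higher and none lower in S100A8 + LLC. Over the panel, the shares higher and lower were 27.8% and 17.5%, 26.5% and 21.4%, and 22.4% and 18.4%, so that counts of 1 or 2 among 6 genes say nothing particular about this list. In HBSS + LLC, *ALOX12* was 4.35-fold higher than in HBSS + vehicle (1.43 to 13.2 over the references) and *FGF-2* was 3.14-fold higher (1.04 to 9.51), so that neither call held with the second housekeeping assay. In S100A8 + LLC against HBSS + LLC, *ALOX12* was 2.28-fold lower (1.26 to 4.14), *FGF-2* 1.89-fold lower (1.04 to 3.43) and *MMP-2*, a matrix protease, 2.31-fold higher (1.27 to 4.199). In S100A8 + LLC against S100A8 + vehicle 1 was lower, *MMP-9*, another matrix protease, at 3.10-fold, beside 29.6% of the panel. With both housekeeping assays as reference, the angiostatic chemokines *CXCL-9* and *CXCL-10* were within 2-fold in each comparison except the last. There *CXCL-10* was 2.85-fold lower in S100A8 + LLC than in S100A8 + vehicle. In HBSS + LLC both were higher with the first housekeeping assay and both lower with the second. In S100A8 + LLC against HBSS + vehicle both were lower with the second assay or the panel median, beside 47 and 41 panel genes. Against HBSS + LLC both were lower with the first assay or the panel median, beside 44 and 32 panel genes. In S100A8 + vehicle 1 was higher with the first assay, and 1 lower with the second or the panel median.

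The 4 panel genes known to regulate transcription of *HIF-1α* (*NF-κB*, *STAT3*, *IL-1β* and *TNF-α*) were read as mRNA only. In HBSS + LLC, where *HIF-1α* was 11.6-fold higher, none was higher and 1 was lower, *TNF-α* at 2.75-fold, beside 26.5% and 21.4% of the panel, and their log2 fold changes ran from -1.46 to -0.67. Over the references, 0 to 4 of them were lower. In S100A8 + vehicle none was past 2-fold, as was the case for *HIF-1α*, and in S100A8 + LLC 2 were lower, *IL-1β* and *TNF-α*, at 3.71-fold and 2.58-fold, beside 18.4% of the panel. Over the references *IL-1β* was 2.22 to 6.19-fold lower there and *TNF-α* 1.55 to 4.32-fold. In S100A8 + LLC 1 of the regulators was lower with the first housekeeping assay, beside 8 of 98 panel genes. With the second assay or the panel median 4 were lower, beside 47 and 41. In S100A8 + vehicle 1 was higher with the first assay, and 1 lower with the second or the panel median. From HBSS + LLC to S100A8 + LLC *IL-1β* was 2.04-fold lower (1.13 to 3.71 over the references) and the other 3 were within 2-fold. With the first housekeeping assay 2 were lower and with the second none, beside 44 and 6 of 98 panel genes. From S100A8 + vehicle to S100A8 + LLC 3 were lower and none higher, with log2 fold changes from -1.67 to -0.93, where 29.6% of the panel was lower. Their part in the values of *HIF-1α* was not tested.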

How the data were processed

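The authors extracted lung RNA, removed genomic DNA, reverse-transcribed 1.5 µg and ran SYBR Green PCR. The labels name a Roche LightCycler and the methods a QuantStudio machine. They deposited Ct values, averaged per group and not normalized, for 100 assays listed by number. A second deposited table holds the authors' own comparisons as a ratio (fold change against HBSS + vehicle). It was used only to identify assays and groups, by matching with the fold changes printed by gene in the supplement, and none of its values is reported. All 98 genes matched exactly 1 assay at 294 values, with a largest difference of 0.000269%, and the 2 unmatched assays were taken as the housekeeping genes β-actin and β2M, in unknown order.

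For each pair of groups, 2 was raised to the difference in normalized Ct with its sign turned, and the result was called past 2-fold. A group at 38 cycles gave a bound, and 2 such groups none. Members and gene lists were chosen with earlier results of these data known. The genes named are the members, their 3 nearest profiles, and genes of the lists that were changed in the same direction in all 3 comparisons with HBSS + vehicle or shared a pattern with a member. Other list genes were named after their values were seen. Alternatives were either housekeeping assay or the panel median as reference, a cap or filter on Ct at 35, a filter at 30, fold thresholds of 1.5 and 3, and the largest difference as the measure of likeness. Sequences are from RefSeq (GRCm38.p6), matched by symbol. Python 3.11.15, numpy 2.4.6 and matplotlib 3.10.9 were used.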

Additional observations from a re-analysis of the deposited data

Results flagged for a closer look

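The effect of S100A8 differed in direction between lungs with and without LLC cancers for *HIF-1β*, with a difference in log2 fold change of 6.08, and for *VEGFα*, with a difference of -2.98. Each was past 2-fold one way without LLC cancers and past 2-fold the other way with them, in 1 average per group, and the difference was not tested. For *VEGFα* neither change was past 2-fold with the second housekeeping assay as reference, at log2 fold changes of 0.50 and -0.98, and with the panel median the change without LLC cancers was within it, at 0.705. For *HIF-1β* the change with LLC cancers was within 2-fold with the first housekeeping assay as reference, at 0.73.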

How the results depend on the processing

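Of 72 values of the 24 log2 fold changes under the 3 other references, 48 kept their direction and their side of 2-fold, 13 fell within 2-fold, 4 went past it and 7 changed direction. With the cap at 35 cycles 1 of 19 values changed direction. The filters at 35 and 30 cycles drop genes and leave the other values as they were, so that they say nothing about stability, and with the cap they left 34 values that could not be computed. Counts of the gene and marker lists under the other references were added after seeing the data. With the first housekeeping assay alone, the log2 fold changes in HBSS + LLC against HBSS + vehicle became -0.67 for *HIF-1β* and -0.69 for *HIF-2α*. Those in S100A8 + LLC against HBSS + vehicle became 0.06 for *HIF-1β* and 1.22 for *VEGFα*, and those against HBSS + LLC 0.73 for *HIF-1β* and -0.67 for *HIF-3α*. With the second alone, S100A8 + vehicle had -0.52 for *HIF-1α* and 0.50 for *VEGFα*, and HBSS + LLC had 0.79 for *HIF-3α* and 0.72 for *VEGFα*. S100A8 + LLC had 0.53 for *HIF-1α*, -1.42 for *HIF-1β* and -0.26 for *VEGFα* against HBSS + vehicle, and -0.61 for *HIF-2α*, 1.05 for *HIF-3α* and -0.98 for *VEGFα* against HBSS + LLC. With the panel median as reference, S100A8 + vehicle had -0.315 for *HIF-1α* and 0.705 for *VEGFα*. S100A8 + LLC had 0.665 for *HIF-1α*, -1.285 for *HIF-1β* and -0.125 for *VEGFα* against HBSS + vehicle, -0.295 for *HIF-3α* against HBSS + LLC, and 0.98 for *HIF-1α* and 0.97 for *HIF-3α* against S100A8 + vehicle. With Ct capped at 35, *HIF-1α* in S100A8 + LLC against S100A8 + vehicle became -0.20, and the shift of *HIF-1β* relative to *HIF-2α* in S100A8 + vehicle became 2.07, because the values above 35 were set to it.

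The counts of genes past 2-fold moved with the same choices. In S100A8 + vehicle the number higher became 0 with the second housekeeping assay, the panel median or a 3-fold threshold, and the number lower became 1 with the filter at 35 cycles and 0 at 30. In HBSS + LLC the number higher became 1 with the second assay or either filter, and the number lower 0 with the first assay or the filter at 30. In S100A8 + LLC against HBSS + vehicle the number higher became 1 with the second assay, the panel median, the cap or a 3-fold threshold and 0 with either filter, and the number lower became 2 with the second assay, the panel median or a 1.5-fold threshold and 0 with the filter at 30. Against HBSS + LLC the number higher became 0 with the first assay or the filter at 30 and 2 with the second assay, and the number lower became 1 with the second assay or the filter at 30. Against S100A8 + vehicle the number higher became 1 with the panel median, the cap or a 3-fold threshold and 0 with either filter, and the number lower became 1 with a 1.5-fold threshold. Smaller moves were 3 higher in S100A8 + LLC against HBSS + vehicle with the first assay, 2 higher in HBSS + LLC with the cap and 2 lower against HBSS + LLC at 3-fold. With the largest difference as the measure of likeness, *HIF-2α* kept 1 of its 3 nearest genes. No paired analysis was possible because each group has 1 averaged value. Mean Ct values above 35 cycles, at which few molecules are detected, were found for *HIF-1α*, *HIF-1β* and *HIF-3α*.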
